A study of Mus musculus with 14 samples.

Results

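The genes that copy the genome and divide the cell were followed across macrophages sorted from the injured mouse brain and monocytes sorted from blood. The set held 38 genes of the cell cycle, chosen by name from a list of its G1/S, DNA synthesis, G2 and mitotic components, among 17178 genes with a symbol on the array. All 38 were found through the RefSeq accessions of 52 probes. Of these, 35 had a probe bright enough to test, and the other 3 (Ccnb1, Cdk1 and Ttk) are given separately.

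Each of 14 single-colour (Cy3) Agilent arrays held amplified RNA of 1 sorted sample. All mice were males of the YARG strain, aged 12 to 16 weeks. YARG mice carry a yellow fluorescent reporter at the arginase-1 locus, so the blood groups carried that allele too, and the Arg1+ and Arg1- labels rest on reporter signal at the sort. The groups were Arg1+ brain macrophages (n = 4) and Arg1- brain macrophages (n = 4), both from mice 1 day after traumatic brain injury (TBI), monocytes from the blood of injured mice 1 day after TBI (n = 3, numbered 1, 3 and 4) and monocytes from the blood of normal mice (n = 3, numbered 2, 3 and 4). Injury was by controlled cortical impact, in which a piston hits the cortex through an opening in the skull. A brain sample without injury was not analysed here. Cells were stained for CD45, CD11b, Ly6G and the Adgre1 antigen with a dead-cell dye, and cell cycle stage was no part of the sort. The labels number the replicates without saying whether they are separate animals, so p-values cover only how these samples vary, and some of that variation may be technical.

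A cell that commits to divide activates E2F factors, which raise cyclin E and the genes for origin licensing, nucleotide supply and DNA synthesis. Later in the cycle Foxm1 and the MuvB complex raise cyclin A, cyclin B, the mitotic kinases and the spindle genes, and the anaphase-promoting complex then ends mitosis. Monocytes in blood are mostly out of the cycle, whereas their marrow precursors and some tissue macrophages divide. Several licensing and nucleotide genes are also used in DNA repair or are made before any commitment to divide.

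The promoters of the members carry known kinds of element, and those of the genes that the comparisons below turn on are shown for that reason. Letters are from RefSeq on GRCm38.p6, as the 150 bases just before the annotated start, 5′ to 3′ along the gene. Capitals mark CCAAT (the NF-Y box), TTTGAA (the cell cycle homology region, CHR) and the E2F forms TTTCCCGC, TTTCGCGC, TTTGCCGC and TTTGGCGC, each searched on both strands.
Top2a, chr11:99024190-99024339, minus strand: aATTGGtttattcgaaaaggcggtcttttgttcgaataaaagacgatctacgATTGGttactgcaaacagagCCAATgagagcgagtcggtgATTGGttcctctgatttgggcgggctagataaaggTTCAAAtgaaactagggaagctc
Mki67, chr7:135716380-135716529, minus strand: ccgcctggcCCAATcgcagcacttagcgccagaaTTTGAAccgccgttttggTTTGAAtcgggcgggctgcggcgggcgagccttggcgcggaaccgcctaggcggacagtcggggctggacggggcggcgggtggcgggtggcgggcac
Rrm2, chr12:24708104-24708253, plus strand: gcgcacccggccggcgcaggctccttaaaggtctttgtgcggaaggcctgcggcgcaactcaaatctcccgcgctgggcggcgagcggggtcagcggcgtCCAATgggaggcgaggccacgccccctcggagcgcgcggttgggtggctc
Birc5, chr11:117849087-117849236, plus strand: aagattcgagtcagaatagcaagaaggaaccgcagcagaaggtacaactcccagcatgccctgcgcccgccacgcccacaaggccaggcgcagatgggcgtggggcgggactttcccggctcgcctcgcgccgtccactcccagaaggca
Tk1, chr11:117826015-117826164, minus strand: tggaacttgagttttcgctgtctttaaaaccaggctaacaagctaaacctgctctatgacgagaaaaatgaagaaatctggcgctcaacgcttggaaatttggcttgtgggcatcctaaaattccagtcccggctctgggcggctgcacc
Mcm3, chr1:20820313-20820462, minus strand: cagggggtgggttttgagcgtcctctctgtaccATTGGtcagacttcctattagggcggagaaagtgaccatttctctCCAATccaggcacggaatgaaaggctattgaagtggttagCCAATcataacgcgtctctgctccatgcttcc
Mcm6, chr1:128359706-128359855, minus strand: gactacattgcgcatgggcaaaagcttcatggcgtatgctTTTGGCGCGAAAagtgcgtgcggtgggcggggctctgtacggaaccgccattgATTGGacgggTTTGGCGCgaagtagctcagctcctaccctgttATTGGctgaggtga

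Top2a held 4 CCAAT boxes and 1 CHR in these bases, and Mki67 held 1 CCAAT box and 2 CHR matches. Mcm6 held 3 E2F matches, a pair of which overlap, and 2 CCAAT boxes. Neither Birc5 nor Tk1 held any of the searched forms there, which says only that these letters are not in this window. Over the 250 bases before the start, 34 windows of 32 members were present, 2 each for Mcm7 and Prc1. A CCAAT box was in 76.5% of the member windows and in 33.8% of all 32851 windows, a CHR in 29.4% and 16%, and an E2F form in 14.7% and 1.86%. A CHR together with a CCAAT box was in 29.4% of the member windows and in 5.55% of all. The 10 members with both were Ccnb2, Cdc20, Cdc45, Cdk1, Kif11, Mcm2, Mki67, Prc1, Top2a and Ube2c.

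Levels below are log2 values of the processed signal relative to each array's own 75th percentile, so that 0 is that percentile and -4.32 is the lowest value possible. Because each probe has its own brightness, a level is compared only with the same gene on other arrays. The arrays differed in brightness, with 75th percentiles of 115.7 to 380.9 intensity units and 50.13% to 67.26% of probes well above background, and no probe was saturated. The brightest array was Arg1- replicate 3 and the faintest were Arg1+ replicates 1 and 3. The sort marker Arg1 itself lay at 6.26 to 6.87 on the 3 Arg1+ arrays with a usable spot, at 2.21 to 4.28 on the 4 Arg1- arrays and at -3.85 to -3.00 in blood. Of the 8 tested markers of monocytes and macrophages, all were above background on some array of every group, except Mertk, which was on no normal blood array. Csf1r lay at 6.35 to 7.61 on the 13 arrays with a usable spot. The arrays sit on 4 slides, each with 1 Arg1+ and 1 Arg1- array, and 3 of the slides also hold 1 array of each blood group.

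Of the 35 tested members, 21 were well above background on all 14 arrays and 14 on only some. In Arg1+ macrophages 6 members (Cdc6, Rrm2, Ccna2, Aurkb, Kif11 and Cenpe) were above background on no array, and in each of the other groups no member was. Counting a member as detected on an array when any of its probes was well above background, 22, 27, 27 and 29 of the 38 were detected on the 4 Arg1+ arrays and 33, 33, 37 and 29 on the 4 Arg1- arrays. The blood arrays ranged from 25 to 35. The array with 22 was the faintest and the array with 37 the brightest, but Arg1- replicate 2, with a 75th percentile of 145.5, detected 33 and Arg1+ replicate 4, with 255.3, detected 29. The part of brightness in these counts was not tested. Cdk1, the kinase that drives entry into mitosis, was above background on Arg1- replicate 3 only, at -3.48, and likewise 2 of the 3 probes of its partner Ccnb1, at -4.32 and -4.15. Ttk, a spindle checkpoint kinase, was above background on no array.

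**Figure D1:**
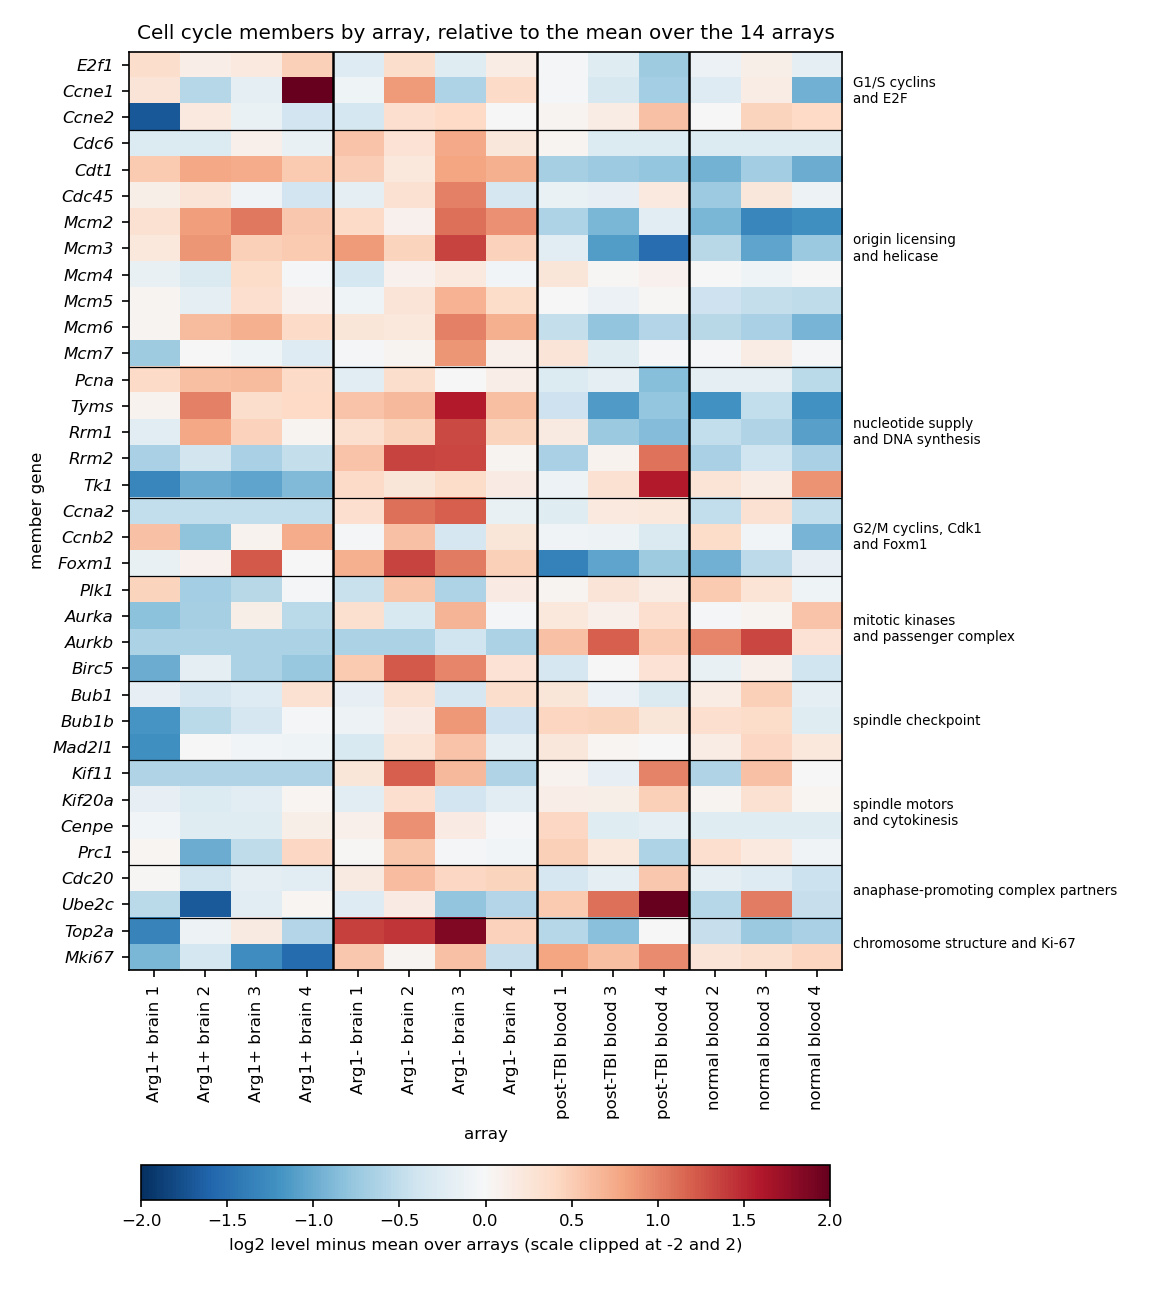
Log2 level of each of the 35 tested members (rows, ordered by role) on each of the 14 arrays (columns), minus that gene's mean over the arrays; colours run from -2 (blue) to 2 (red). Birc5, Tk1 and Mki67 are blue on Arg1+ arrays, Top2a is red on Arg1- arrays, and Cdt1, Mcm2, Mcm3, Mcm6 and Tyms are red on brain arrays and blue on blood arrays.

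The first comparison asks how brain macrophages with and without arginase-1 reporter signal differ, both taken 1 day after injury. In Arg1+ macrophages 2 of 5 nucleotide supply members (Rrm2 and Tk1) fell. So did 4 of 18 tested G2 and mitosis members (Ccna2, Birc5, Top2a and Mki67). The falls ran from 1.93-fold, a bound, to 3.33-fold, and no member rose (limma on all tested genes, adjusted p under 0.05). These 6 of 35 members are 17.1%, against 3.05% of all 21977 tested genes that were lower, and 5.01% that were called in either direction. The median difference over the 35 members was -0.39 (-0.37 with the 6 members above background on no Arg1+ array at their bounds), against -0.01 over all tested genes, and 28 of the 35 values were below 0. Within the 4 slides the member median was -0.42, -0.08, -0.29 and -0.58.

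Top2a, the topoisomerase that untangles replicated DNA for mitosis, measured -3.75, -2.51, -2.24 and -3.00 on the Arg1+ arrays and -1.05, -0.99, -0.56 and -1.96 on the Arg1- arrays. Every Arg1+ array lay below every Arg1- array, and Arg1+ replicate 1 was the lowest and not above background. The difference was -1.73 ± 0.35 (SE), or 3.33-fold, with an adjusted p of 0.00832 in limma. Its second probe moved alike, by -2.09.

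Birc5 encodes survivin, the chromosomal passenger protein that guides chromosome attachment. It measured -2.17, -1.36, -1.81 and -1.94 in Arg1+ and -0.66, 0.05, -0.21 and -0.89 in Arg1- macrophages, with no overlap. It fell by 1.39 ± 0.25 on the log2 scale (2.62-fold, adjusted p = 0.00443 in limma). Within slides the difference ran from -1.99 to -1.15.

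Tk1, the cytosolic thymidine kinase of the salvage pathway, gave the tightest pair of groups among the called members. The Arg1+ arrays measured -0.80, -0.50, -0.56 and -0.38 and the Arg1- arrays 0.88, 0.74, 0.86 and 0.66. The difference of -1.34 ± 0.28 (2.54-fold, adjusted p = 0.0119 in limma) was several times the spread within each group, whose SDs were 0.17 and 0.10 (n = 4 each).

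Mki67 encodes Ki-67, the coat protein of mitotic chromosomes that is widely used to mark cycling cells. Arg1+ arrays measured -2.13, -1.56, -2.46 and -2.75 and Arg1- arrays -0.67, -1.16, -0.63 and -1.67. The groups overlapped slightly, because Arg1- replicate 4 lay below Arg1+ replicate 2. The fall was -1.19 ± 0.27 (2.29-fold, adjusted p = 0.0188 in limma) and -1.16 on the second probe.

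Rrm2, the regulated subunit of ribonucleotide reductase, was above background on 3 of 4 Arg1- arrays (-3.10, -2.32, -2.34 and -3.62) and on no Arg1+ array (-4.32, -4.04, -4.32 and -4.15). For a bound, each Arg1+ value was set no lower than the dimmest probe well above background on the same array. Against the measured Arg1- mean, which takes in the array not above background, Rrm2 had a bound of 2.3-fold lower (fitted adjusted p = 0.0302 in limma). Ccna2, cyclin A2 of S phase and G2, stood at -4.32 on every Arg1+ array and at -3.5, -2.73, -2.64 and -3.97 in Arg1- macrophages, 3 of them above background. Its bound, taken in the same way, was 1.93-fold lower (fitted adjusted p = 0.0353 in limma). In both genes Arg1- replicates 2 and 3 were the high arrays and replicate 4 the low one.

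**Figure D2:**
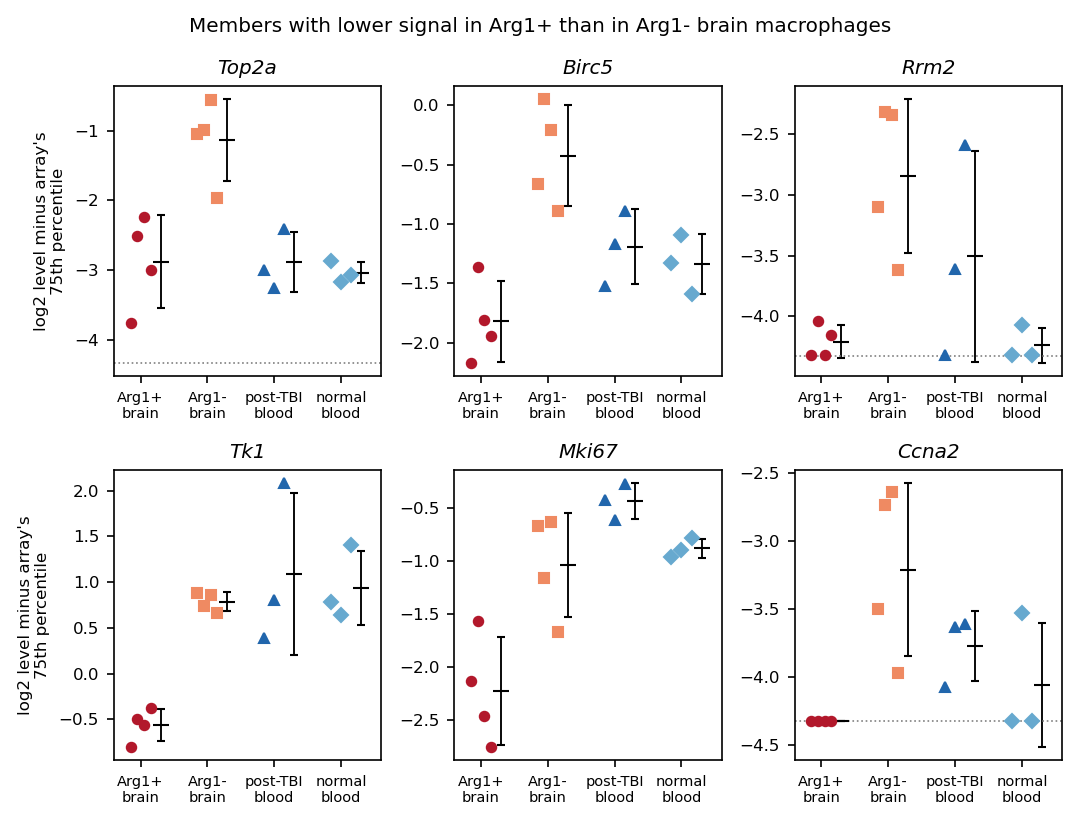
Log2 level of the 6 members called lower in Arg1+ macrophages, 1 point per array in 4 groups, with the mean and SD beside each group; the dotted line is the lowest value possible, drawn where it is near. Arg1+ arrays lie below all Arg1- arrays in every panel except Mki67, and Rrm2 and Ccna2 sit at or near the lowest value.

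The other members did not pass the test in this comparison. The 9 licensing and helicase members, which load the replicative helicase onto origins, had a median of -0.21, and those other than Cdc6 ranged from -0.52 (Mcm7) to 0.09 (Cdt1). Cdc6, above background on no Arg1+ array and on 3 of 4 Arg1- arrays, measured -4.32 to -3.95 against -3.82 to -3.29 without overlap. Its bound of 1.38-fold lower takes in the Arg1- array not above background (fitted adjusted p = 0.0706 in limma). Of the G1/S regulators, E2f1 differed by 0.29, Ccne2 by -0.60 and Ccne1 by 0.25, and the second Ccne1 probe went the other way (-0.24). Pcna, the sliding clamp of DNA polymerase, was the only member higher on every Arg1+ array (3.99 to 4.23 against 3.38 to 3.95), by 0.44, with an adjusted p of 0.193 in limma. Tyms, the thymidylate synthase, differed by -0.39 and Rrm1, the constant subunit of ribonucleotide reductase, by -0.37.

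Among mitotic members the values were mostly below 0 without passing. Foxm1, the factor that raises G2 genes, differed by -0.59 and Ccnb2 by 0.03. The kinases Aurka and Plk1 differed by -0.65 and -0.12, and Aurkb could not be compared because it was above background on 1 of these 8 arrays. The checkpoint members Bub1b, Mad2l1 and Bub1 differed by -0.65, -0.43 and -0.15. The spindle motors Kif11 and Cenpe were above background on no Arg1+ array and on 2 and 3 of 4 Arg1- arrays. Their bounds of 1.75-fold and 1.21-fold lower take in Arg1- arrays not above background. No difference can be read from them (fitted adjusted p = 0.153 and 0.415 in limma). Prc1 and Kif20a differed by -0.39 and -0.04. Cdc20, the activator of the anaphase-promoting complex, was lower without overlap (-1.91 to -1.48 against -1.33 to -0.89; -0.61, adjusted p = 0.137 in limma), and its partner Ube2c differed by -0.23. Without overlap, 7 members were lower and 1 higher, where 7.64% of all tested genes were lower and 6.78% higher in that way.

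How far the 6 calls hold depended on single arrays for 3 of them. Top2a, Birc5 and Tk1 stayed called without any 1 of the 8 brain arrays, with adjusted p at most 0.035, 0.0198 and 0.0403 in limma. Mki67 lost its call without Arg1- replicate 1 or 3 or Arg1+ replicate 3 or 4 (adjusted p up to 0.0743 in limma). Rrm2 lost it without any brain array but Arg1- replicate 4 (up to 0.105), and Ccna2 without Arg1- replicate 2 or 3 or any Arg1+ array (up to 0.119). Only 3 members were called when Arg1- replicate 3, Arg1+ replicate 3 or Arg1+ replicate 4 was left out. Without both of the faintest arrays, which leaves 2 Arg1+ arrays, it was 0 of 35 where 297 of all genes were called. There the differences were -1.62 (Top2a), -1.22 (Birc5), -1.22 (Tk1) and -1.12 (Mki67), with adjusted p of 0.0586 to 0.178 in limma, and the adjusted p of Ccna2 and Rrm2 were 0.223 and 0.258. With normexp background correction 2 members were called lower, and 3 with the authors' deposited log2 table.

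Markers of several other leukocytes were lower too. Among the markers tested, 5 of 8 of mature neutrophils, 5 of 8 of granulocyte precursors, 6 of 7 of dendritic cells and 3 of 6 of Ly6C-high monocytes were called lower in Arg1+ macrophages, and none of these 4 lists had a marker called higher. Of 8 markers of Ly6C-low monocytes 4 were lower and 2 higher (Cd36 by 2.19 and Fabp4 by 1.15), of 7 natural killer cell markers 1 was lower, and of 6 T cell and 6 B cell markers none was called. The summed level of the precursor markers, as a multiple of the array's 75th percentile, was 2.77, 7.01, 2.95 and 1.69 on the Arg1+ arrays and 56.7, 92.9, 62.5 and 17.2 on the Arg1- arrays. The neutrophil sum ran from 8.13 to 13.3 against 30.2 to 66.1, and the dendritic cell sum from 0.618 to 1.13 against 8.44 to 12.9. On Arg1+ arrays Elane and Kmo were above background on no array. Arg1- replicate 4 was the lowest Arg1- array for Top2a, Birc5, Tk1, Rrm2, Mki67 and Ccna2, and also for the precursor and neutrophil sums. It was not the lowest for the dendritic cell sum (8.83, with replicate 2 at 8.44). Nor was it the lowest for the Ly6C-high monocyte sum (90.5, in a range of 70.6 to 104). The part of these cells in the members' difference was not tested. In sorted bulk RNA, fewer cells of a type and less RNA per cell cannot be told apart.

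Other genes of the same pathways were called in both directions. Of 35 tested further mitosis genes, 6 were lower and none higher (median -0.52). Racgap1, a cytokinesis regulator, fell by 1.55 (adjusted p = 0.00672 in limma) and Kif23, its motor partner, by 1.2 (0.014). Cenpf, a kinetochore protein, and Anln, which scaffolds the cleavage furrow, were above background on no Arg1+ array and were at least 2.3-fold and 2.27-fold lower. Of 20 further replication genes, 1 was higher (Dnmt1, the maintenance DNA methyltransferase, by 0.77, adjusted p = 0.0102 in limma) and none lower, with a median of 0.05. The G1 cyclins Ccnd2 and Ccnd3, which pair with Cdk4 and Cdk6, differed by -2.05 and -1.11, and Cdk4 by 0.53 (1 higher and 2 lower of 7 tested). Of 14 CDK inhibitors and antiproliferative genes, Cdkn2b and Cdkn2d were lower, and of 17 pocket proteins, E2Fs and MuvB genes only E2f2 was lower (-1.73). Timeless was the 1 called of 8 checkpoint and repair genes (-1.07), and Flt3, the growth factor receptor of dendritic cell precursors, the 1 called of 11 myeloid growth factor genes (-2.56).

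The second comparison sets blood monocytes of injured mice against those of normal mice. No sham-operated group was among the samples, so surgery and impact cannot be told apart. No member was called in limma, where 0.118% of all tested genes (26) were called, 0.0819% higher and 0.0364% lower. At an unadjusted p under 0.05, 1 of 35 members (Ube2c) and 1409 of 21977 genes (6.41%) passed. The member median was 0.14 against -0.01 for all genes, with 24 values above 0 and 11 below, and within slides it was 0.00, 0.28 and -0.09. Without overlap 3 members were higher and none lower, where 9.26% of all genes had no overlap, 3.92% higher and 5.33% lower.

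Ube2c, the ubiquitin-conjugating enzyme of the anaphase-promoting complex, had the widest spread. It measured -1.28, -0.70 and 0.48 after TBI and -2.37, -0.78 and -2.26 in normal blood, a difference of 1.30 with an adjusted p of 0.67 in limma. Post-TBI replicate 4 was high and normal replicate 3 overlapped the injured samples. The 3 members whose groups did not overlap were Mcm4 (1.23 to 1.45 against 1.12 to 1.21), Mcm5 (-0.10 to 0.04 against -0.48 to -0.39) and Mki67 (-0.61 to -0.27 against -0.96 to -0.78). Their differences were 0.15, 0.42 and 0.44, with adjusted p of 1, 0.8 and 0.95 in limma. Of the 7 lists of further cell cycle and growth genes, none had a gene called.

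The last comparisons set each brain population against blood monocytes of injured mice. Both use the same 3 blood arrays and are not independent of each other, and brain and blood cells were also prepared by different routes (enzyme digestion and Percoll against ficoll), which cannot be told apart from the tissue. In both brain populations 4 of 9 licensing and helicase members (Cdt1, Mcm2, Mcm3 and Mcm6), 1 of 5 nucleotide supply members (Tyms) and the G2 factor Foxm1 were higher, by 2.08-fold to 3.82-fold. Ube2c and Aurkb were lower in both. In Arg1+ macrophages 8 of 35 members were higher (22.9%, against 19.6% of all tested genes) and 5 lower (14.3%, against 20%). In Arg1- macrophages 10 were higher (28.6%, against 17.4%) and 2 lower (5.71%, against 15.8%). In either direction 13 (37.1%) and 12 (34.3%) of the members were called, where 39.6% and 33.2% of all genes were. Only these pooled shares lie near the background in both comparisons. By direction, the share in Arg1- macrophages was above that of all genes for higher members and below it for lower ones. The members were not tested as a set, and the calls below describe single genes. At an unadjusted p under 0.05, 17 and 13 members passed, where 47.1% and 41.9% of all genes did. Without overlap, 8 members were higher and 9 lower in Arg1+ macrophages (18.9% and 20.7% of all genes, 39.6% in all), and 9 higher and 3 lower in Arg1- macrophages (19% and 17.6%, 36.6% in all). The member medians were -0.13 and 0.29, against -0.03 and -0.01 for all genes.

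**Figure D3:**
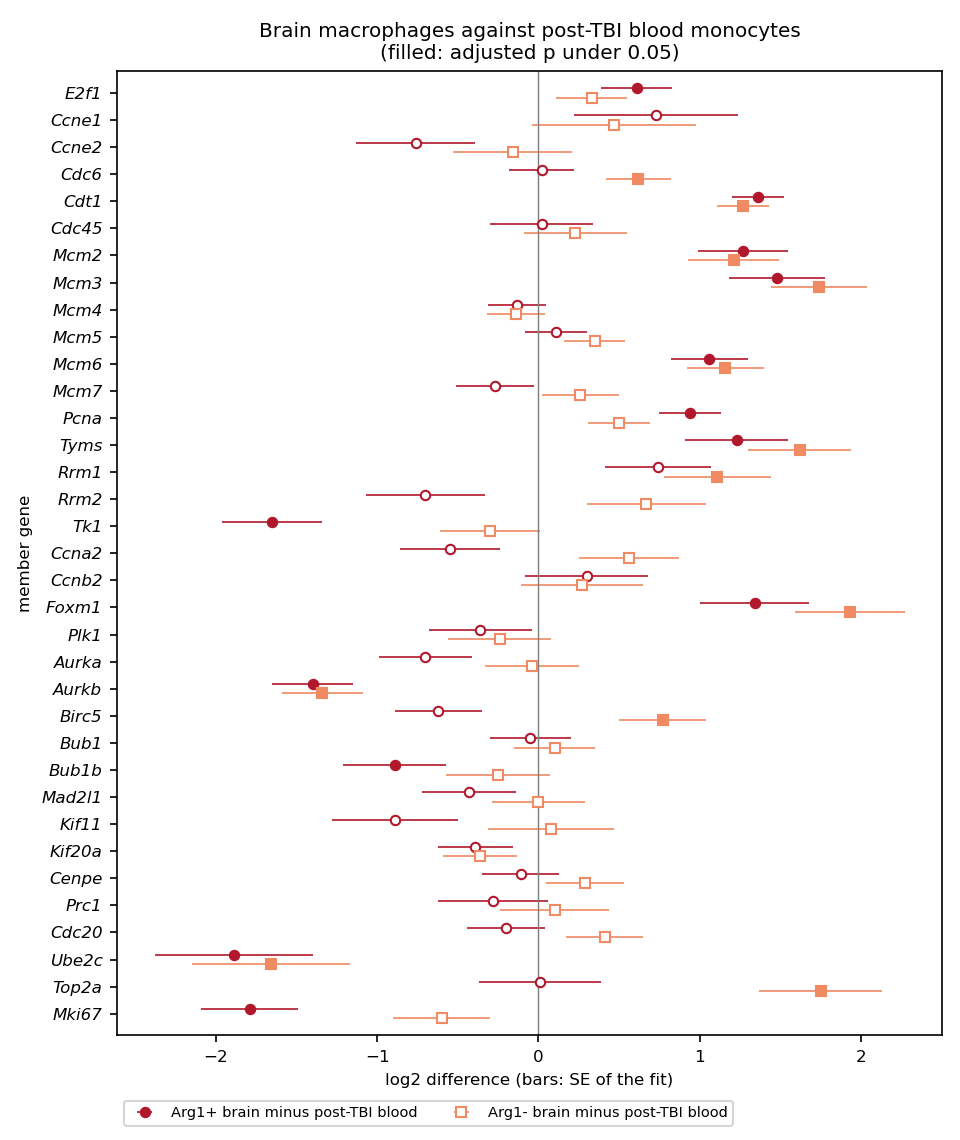
Fitted log2 difference of each of the 35 tested members between Arg1+ (circles) or Arg1- (squares) brain macrophages and post-TBI blood monocytes, with bars of 1 SE; filled symbols have an adjusted p under 0.05, and Arg1+ values of Cdc6, Rrm2, Ccna2, Aurkb, Kif11 and Cenpe are fitted to arrays not above background. Cdt1, Mcm2, Mcm3, Mcm6, Tyms and Foxm1 lie to the right of 0 in both, and Top2a lies at 0.01 for Arg1+ and at 1.75 for Arg1- macrophages.

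Cdt1, which brings the helicase to origins to license them, separated brain from blood most cleanly. It measured 2.14, 2.39, 2.36 and 2.14 in Arg1+ and 2.11, 1.82, 2.40 and 2.32 in Arg1- macrophages, but 0.95, 0.89 and 0.84 in blood after TBI and 0.66, 0.91 and 0.62 in normal blood. No brain array overlapped a blood array. The differences from post-TBI blood were 1.36 ± 0.16 (adjusted p = 8.12e-06 in limma) for Arg1+ and 1.27 ± 0.16 (2.45e-05) for Arg1- macrophages.

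The MCM proteins form the ring of the replicative helicase, and 3 of the 6 measured subunits moved. Mcm2 measured -1.26, -0.74, -0.52 and -1.03 in Arg1+ and -1.18, -1.48, -0.47 and -0.66 in Arg1- macrophages against -2.19, -2.49 and -1.80 in post-TBI blood. It was 1.27 ± 0.28 and 1.21 ± 0.28 higher (adjusted p = 0.00209 and 0.00384 in limma). All 8 brain arrays lay above all 3 blood arrays.

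Mcm3 measured 0.04 to 0.71 in Arg1+ and 0.28 to 1.18 in Arg1- macrophages against -0.40, -1.29 and -1.69 in post-TBI blood, and was 1.48 ± 0.30 and 1.74 ± 0.30 higher (adjusted p = 0.000963 and 0.000354 in limma). Mcm6 measured -1.01 to -0.35 and -0.84 to -0.05 against -1.53, -1.84 and -1.65, and was 1.06 ± 0.24 and 1.16 ± 0.24 higher (adjusted p = 0.00264 and 0.00176 in limma). Neither gene overlapped between brain and post-TBI blood. The subunits Mcm4, Mcm5 and Mcm7 of the same ring did not pass in either comparison: they differed by -0.13, 0.11 and -0.27 in Arg1+ and by -0.14, 0.35 and 0.26 in Arg1- macrophages. Cdc45, the cofactor that activates the helicase, differed by 0.02 and 0.23.

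Cdc6, the loader that acts with Cdt1, was 0.62 higher in Arg1- macrophages (adjusted p = 0.0232 in limma) and has no fold for Arg1+ macrophages. It was near background, with 3 of 4 Arg1- arrays, no Arg1+ array and 1 of 3 post-TBI arrays above it, and it lost the call without Arg1- replicate 1 or 3 or post-TBI replicate 3 or 4 (adjusted p up to 0.0848 in limma). E2f1, the activator of these genes, was 0.61 higher in Arg1+ macrophages (adjusted p = 0.0383 in limma), with -0.74 to -0.40 against -1.58 to -0.91. It lost the call without Arg1+ replicate 1, 3 or 4 or post-TBI replicate 3 or 4 (up to 0.149), and in Arg1- macrophages it differed by 0.33. The second E2f1 probe, above background on all 14 arrays, gave 0.36 in Arg1+ and -0.03 in Arg1- macrophages. With the mean of the probes in place of the brightest, the E2f1 call was also lost.

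Among the members that supply and use nucleotides, Tyms measured -3.04, -2.10, -2.75 and -2.70 in Arg1+ and -2.53, -2.46, -1.52 and -2.50 in Arg1- macrophages, against -3.52, -4.23 and -3.88 in post-TBI blood. It was 1.23 ± 0.32 and 1.62 ± 0.32 higher (adjusted p = 0.00583 and 0.00102 in limma), although only 1 of 3 post-TBI arrays was above background. Its second probe gave 1.33 and 1.60. Both Tyms calls were lost with the 75th percentile over probes detected on all arrays (adjusted p = 0.609 for Arg1+ and 0.072 for Arg1- in limma). Rrm1 was 1.11 ± 0.33 higher in Arg1- macrophages (-2.75, -2.62, -1.75 and -2.62 against -2.89, -3.81 and -3.94; adjusted p = 0.0179 in limma), and lost the call without Arg1- replicate 3 or post-TBI replicate 3 or 4 (up to 0.0797). In Arg1+ macrophages it differed by 0.74.

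Pcna measured 3.99, 4.20, 4.23 and 3.99 in Arg1+ macrophages and 3.33, 3.41 and 2.75 in post-TBI blood. It was 0.94 ± 0.19 higher (adjusted p = 0.00097 in limma). In Arg1- macrophages it was 0.50 higher (3.38, 3.95, 3.59 and 3.73), with an adjusted p of 0.0533, and of 0.0492 in the fit that blocked on slide. Tk1 went the other way from Tyms, Rrm1 and Pcna in Arg1+ macrophages, and Rrm2, near background, is given below. Its post-TBI arrays measured 0.39, 0.80 and 2.08, and Arg1+ macrophages differed from them by -1.65 ± 0.31 (adjusted p = 0.000526 in limma), while Arg1- macrophages differed by -0.30.

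Foxm1 measured -1.66, -1.42, -0.28 and -1.5 in Arg1+ and -0.81, -0.16, -0.47 and -1.03 in Arg1- macrophages, against -2.87, -2.57 and -2.22 in post-TBI blood. It was 1.34 ± 0.34 and 1.93 ± 0.34 higher (adjusted p = 0.00502 and 0.000406 in limma), with no overlap. Other G2 and mitosis members went in both directions, and a link of their levels to Foxm1 was not tested. Ccnb2 differed by 0.30 and 0.27, Plk1 by -0.36 and -0.24, and Aurka by -0.70 and -0.04, and none of these passed. Top2a rose in Arg1- macrophages by 1.75 ± 0.38 (adjusted p = 0.00216 in limma) without overlap with the post-TBI arrays (-2.99, -3.25 and -2.41), and differed by 0.01 in Arg1+ macrophages.

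Ube2c and Aurkb, both needed to complete mitosis, were the members lower in both brain populations. Ube2c measured -2.33, -3.47, -2.03 and -1.76 in Arg1+ and -2.05, -1.64, -2.59 and -2.38 in Arg1- macrophages against -1.28, -0.70 and 0.48 in post-TBI blood. It differed by -1.89 and -1.66 (SE 0.49 for both; adjusted p = 0.00602 and 0.0161 in limma). Without post-TBI replicate 4, its high array, the difference from Arg1- macrophages was -1.17 with an adjusted p of 0.0962, which leaves 1 lower member there in place of 2.

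Aurkb, the kinase of the chromosomal passenger complex, measured -3.10, -2.48 and -3.18 in post-TBI blood, above background on 2 of 3 arrays. It stood at -4.32 on all Arg1+ arrays, none above background. With the post-TBI array not above background at its measured value, Aurkb had a bound of 2.36-fold lower (fitted adjusted p = 0.000344 in limma). On the Arg1- arrays it stood at -4.32 on 3 and at -4.08 on replicate 3, the only one above background (fitted difference -1.34, adjusted p = 0.00069). Both Aurkb calls were lost with normexp background correction and with the 75th percentile over probes detected on all arrays. There the adjusted p reached 0.767 (Arg1+) and 0.491 (Arg1-) in limma. The partner of Aurkb in the same complex, Birc5, was higher in Arg1- macrophages by 0.77 (adjusted p = 0.0425 in limma, and 0.0606 when blocked on slide) and differed by -0.62 in Arg1+ macrophages. That Birc5 call was also lost without Arg1- replicate 2 or 3 or post-TBI replicate 1 or 3, with adjusted p up to 0.149.

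Mki67 was lower in Arg1+ macrophages than in post-TBI blood (-0.42, -0.61 and -0.27) (-1.79 ± 0.30, adjusted p = 0.000184 in limma), without overlap, and by -1.11 on its second probe. In Arg1- macrophages the first probe differed by -0.60 without overlap, which passed only when blocked on slide (-0.78, adjusted p = 0.0204), and the second by 0.06. Bub1b, a checkpoint kinase-like protein, differed by -0.89 ± 0.32 in Arg1+ macrophages (-3.22, -2.58, -2.37 and -2.07 against -1.61, -1.59 and -1.80; adjusted p = 0.0392 in limma). That call was lost without Arg1+ replicate 1, 2 or 3 or any post-TBI array (up to 0.109), and in Arg1- macrophages Bub1b differed by -0.25. With slide as a block, 9 members in place of 5 were lower in Arg1+ macrophages, the added ones being Ccne2, Aurka, Birc5 and Kif11.

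**Figure D4:**
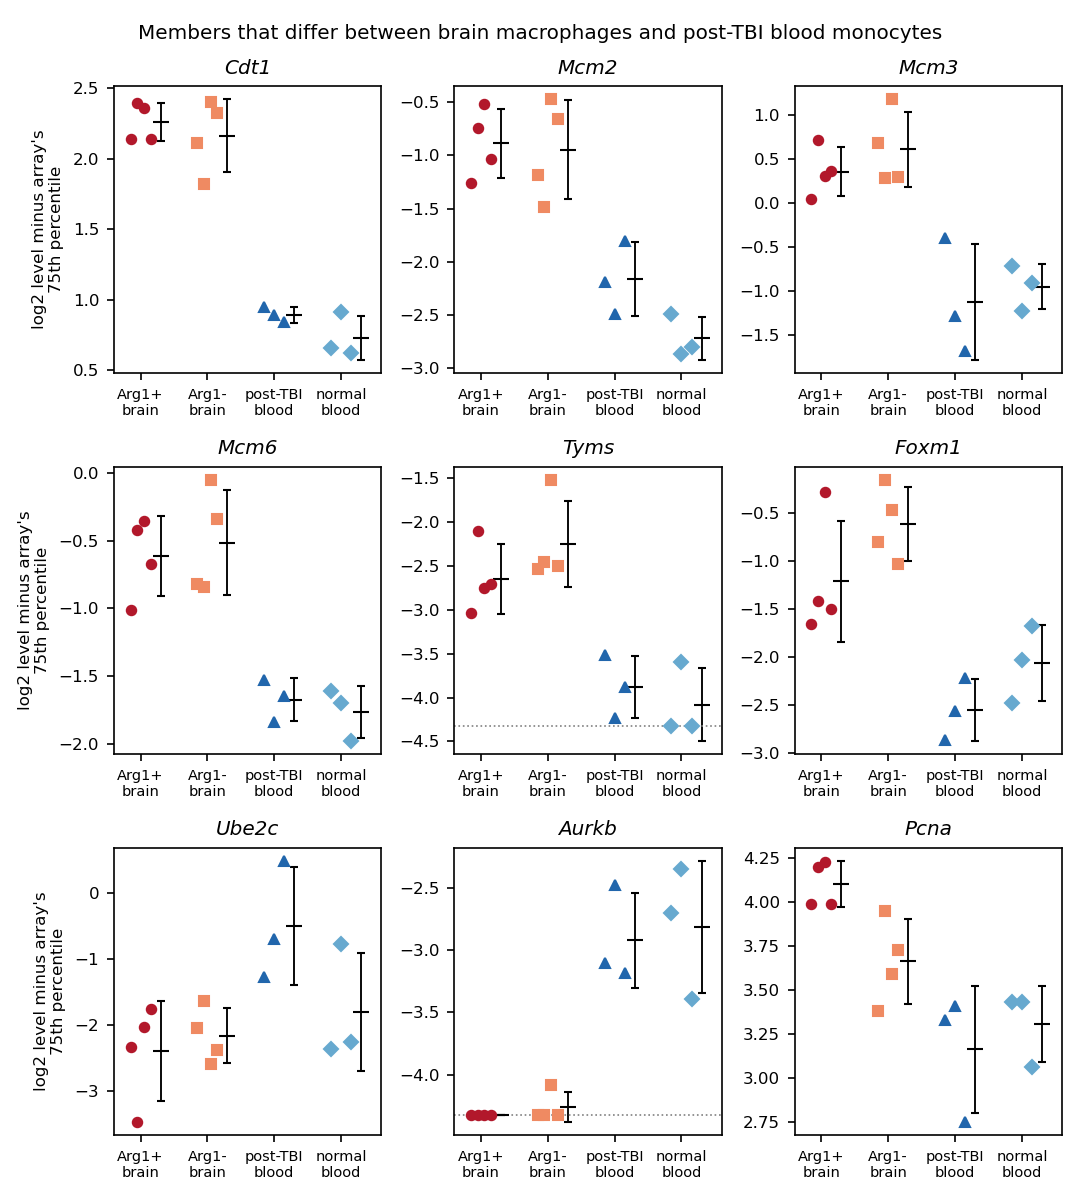
Log2 level of 9 members that differ between brain macrophages and post-TBI blood monocytes, 1 point per array in 4 groups, with the mean and SD beside each group; the dotted line is the lowest value possible, drawn where it is near. Cdt1, Mcm2, Mcm3, Mcm6, Tyms and Foxm1 lie higher on brain than on post-TBI blood arrays, and Ube2c and Aurkb lie lower.

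The remaining members did not pass in either brain and blood comparison. Ccne1 differed by 0.73 and 0.47 and Ccne2 by -0.76 and -0.16, the first value of each pair being for Arg1+ macrophages. Rrm2, Ccna2 and Kif11 were above background on no Arg1+ array and on only 1, 1 and 2 of 3 post-TBI arrays. Their bounds of 1.45-fold, 1.31-fold and 1.66-fold lower in Arg1+ macrophages take in post-TBI arrays not above background. No difference can be read from them (fitted adjusted p = 0.15, 0.175 and 0.0797 in limma). In Arg1- macrophages these 3 genes differed by 0.67, 0.56 and 0.08. The second Kif11 probe, above background on only 4 arrays, gave 0.0 in Arg1+ and 1.17 in Arg1- macrophages. A difference of exactly 0 is what groups at the lowest value possible give, so it does not contradict the first probe. The 1.17 would then be taken from blood arrays at that lowest value, and its size cannot be read. Ccne1 was higher when blocked on slide, at 1.01 (adjusted p = 0.0101 in limma) and 0.76 (0.0483). The checkpoint members Bub1 and Mad2l1 ranged from -0.43 to 0.10, and the spindle and cytokinesis members Kif20a and Prc1 from -0.39 to 0.10. Cenpe differed by 0.29 in Arg1- macrophages and has no fold for Arg1+ macrophages, and Cdc20 differed by -0.20 and 0.41.

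Split by phase, the 17 G1/S and DNA synthesis members had medians of 0.61 (Arg1+) and 0.50 (Arg1-) against post-TBI blood, and the 18 tested G2 and mitosis members -0.41 (-0.39 with 4 members at their bounds) and 0.09. Their mean levels, each gene taken relative to its mean over the arrays, place the groups differently. For the G1/S and DNA synthesis members the blood arrays lay between -0.48 and -0.17, the Arg1- arrays between 0.17 and 0.70, and the Arg1+ arrays at 0.17 to 0.20 except replicate 1 at -0.16. For the G2 and mitosis members the Arg1+ arrays lay at -0.49 to -0.21, below all other arrays, the nearest being normal blood replicate 4 at -0.16. Of these 18 members, 4 were above background on no Arg1+ array. Over the 21 members of both phases above background on all arrays, the Arg1+ arrays (-0.13 to 0.08) overlapped the blood arrays (-0.34 to 0.01). The Arg1- arrays lay there at 0.09 to 0.41. These means describe the same values as the tests above and were not tested.

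**Figure D5:**
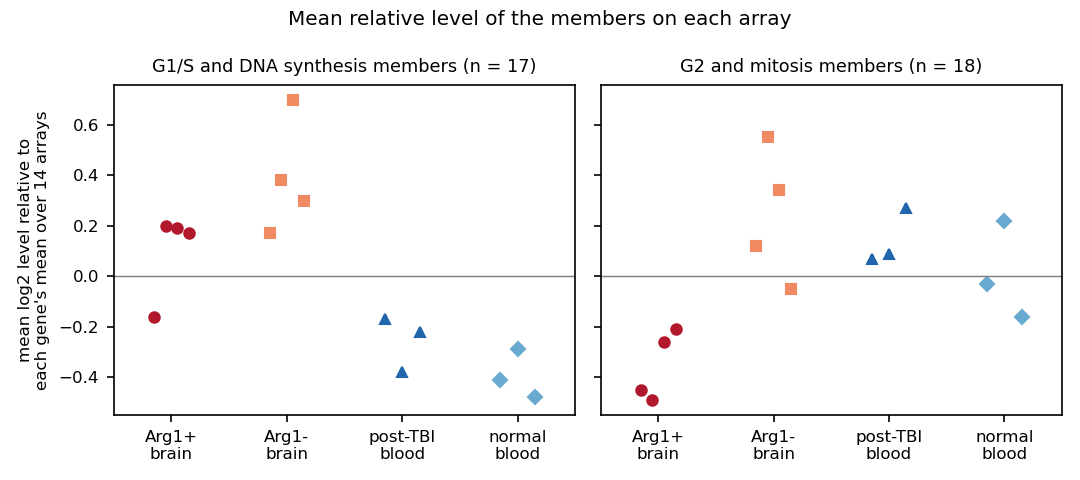
Mean log2 level of the 17 G1/S and DNA synthesis members (left) and the 18 G2 and mitosis members (right) on each array, each gene relative to its mean over the 14 arrays; 1 point per array. The Arg1+ arrays are the lowest for the G2 and mitosis members (-0.49 to -0.21), of which 4 were above background on no Arg1+ array. The blood arrays are the lowest for the G1/S and DNA synthesis members (-0.48 to -0.17).

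Further genes of the pathway gave counts on both sides, to be read against the 19.6% higher and 20% lower of all genes in Arg1+ and the 17.4% and 15.8% in Arg1- macrophages. Of 20 other replication genes, 7 were higher and 2 lower in Arg1+ and 7 higher and none lower in Arg1- macrophages. Gins2, a helicase subunit, rose by 2.26 and 1.91 and Lig1, the ligase that seals nascent strands, by 1.59 and 1.08. Of 35 other mitosis genes, 4 were higher and 12 lower in Arg1+ and 9 higher and 7 lower in Arg1- macrophages. In Arg1+ macrophages Kif23 differed by -2.48 and Cks2, a Cdk1 subunit, by -1.98, and Nusap1, a spindle protein above background on no Arg1+ array, was at least 4.53-fold lower. Ccnf rose by 1.73 in Arg1- macrophages.

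The growth controls were called in both directions. Cdkn1a, the p21 inhibitor of cyclin kinases, was 1.99 and 2.36 higher in Arg1+ and Arg1- macrophages than in post-TBI blood, and Mdm2, which like Cdkn1a is a p53 target, 1.91 and 1.96 higher (adjusted p at most 4.67e-05 in limma). Of 14 such genes 3 were higher and 4 lower in Arg1+ (21.4% and 28.6%), and 3 higher and 3 lower in Arg1- macrophages, near the shares of all genes. Of the 7 G1 cyclins, kinases and Myc, 3 were higher and 1 lower in Arg1+ and 4 higher and 1 lower in Arg1- macrophages. Cdk6 rose by 2.06 and 2.36 and Myc by 1.52 and 1.67, while Ccnd3 differed by -2.60 and -1.49. Among 17 pocket proteins, E2Fs and MuvB genes, 1 was higher and 6 lower in Arg1+, and 1 higher and 4 lower in Arg1- macrophages. Tfdp2, a partner of E2F factors, differed by -3.5 and -3.15 and E2f2 by -3.30 and -1.57. Of 8 checkpoint and repair genes, 2 were higher and 2 lower in each. Maf, a macrophage factor known to restrain cycling, was 2.89 higher in Arg1+ and 2.36 higher in Arg1- macrophages, among 4 of 11 myeloid growth factor genes called higher in each.

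Markers of other cells differed between brain and blood as well. Of 3 tested erythroid markers, 2 were called lower in both brain populations, and the summed erythroid level was 57.0, 63.2 and 100 on the post-TBI arrays, 7.38, 57.3 and 28.7 in normal blood, and 0.309 to 1.08 on all brain arrays. Post-TBI replicate 4, the highest in erythroid sum, was also the highest post-TBI array for Ube2c and Tk1. In normal blood replicate 3, the highest in erythroid sum, was the highest for Ube2c (-0.78) and the lowest for Tk1 (0.64). The summed neutrophil level was also highest in post-TBI replicate 4 (97.1, with 18.4 the next highest post-TBI array). All 6 tested B cell markers were lower in both brain populations, with Ms4a1 above background on no brain array. The precursor markers were low in post-TBI blood, with a sum of 1.35 to 2.18, and 5 of 8 were called higher in Arg1- macrophages against 1 higher and 1 lower in Arg1+ macrophages. The part of these cells in the members' differences was not tested.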

How the data were processed

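Each array came as a deposited text file of Feature Extraction 10.7.3.1, per the file headers: a processed signal intensity, background-subtracted and not scaled between arrays, with median and background intensities and other values such as per-spot flags. The authors also deposited a log2 table, used as an alternative, and per the submitters' processing notes used limma. RNA was amplified before labelling, per the labels' protocols.

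Processed signal was divided by each array's 75th percentile, raised to at least 0.05 and log2 transformed. Outlier spots (200 to 728 per array) were set aside. Probes well above background on at least 3 arrays, with at least 2 usable arrays in every group, were kept. Probes were named through RefSeq accessions (24844 of 41174 probes), and the brightest kept probe stood for a gene. This left 21977 features, 12973 with a symbol. limma 3.58.1 (R 4.3.3) fitted all 14 arrays with 4 groups, an intensity trend and 10 residual degrees of freedom. Adjusted p-values are two-sided Benjamini-Hochberg values over all features, and called means under 0.05. Promoters were matched by symbol (32 of 38 members). Folds of genes above background on no array of a group are lower bounds, against the dimmest probe well above background on each array, or are not given where the bound is under 1. The other group enters at its measured mean, including arrays not above background, so a bound covers only the dimmer group. P-values of such genes, the medians and the plots use fitted values. Values after ± are SEs of the fit unless called SD. The members, the further gene lists and the marker lists were chosen with earlier results of these data known. All 38 members are reported, with at most the 4 largest called changes of each further list per comparison. The fit was tested on simulated data. Precision is limited by having 3 or 4 arrays in a group. The normexp alternative used the median spot signal with an offset of 50.

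Alternatives were another background correction, scalings, filters, floor, probe rule, slide or replicate number as a block, only the groups compared, no trend, and leaving out each array. Leaving out both of the faintest arrays was added after seeing the data.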

Additional observations from a re-analysis of the deposited data

Results flagged for a closer look

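In groups of 4 arrays, 7 of 67 pairs of member and group held 1 array whose gap to the next passed Dixon's critical ratio. For independent normal values chance would give about 1 in 20 (3.4). Some groups here hold values tied at the lowest value possible, and the members share arrays, so 7 cannot be weighed against 3.4. Arg1- replicate 3, the brightest array, was the outlying one in 4 of the 7. There Mcm7 stood at 0.89 with the other 3 arrays at -0.01 to 0.12, Tyms at -1.52 with the others at -2.53 to -2.46, and Rrm1 at -1.75 with the others at -2.75 to -2.62. Aurkb stood at -4.08 with the other 3 tied at the lowest value possible, where any higher value is flagged. In Arg1+ macrophages Foxm1 stood at -0.28 on replicate 3 (others -1.66 to -1.42) and Mad2l1 at -1.27 on replicate 1, the faintest array (others -0.12 to -0.05). Prc1 stood at -2.51 on Arg1- replicate 2 (others -3.12 to -3.04).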

How the results depend on the processing

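No called member changed direction under any alternative. Of 31 calls of a member in a comparison, 15 held under every alternative run (none of 6 between Arg1+ and Arg1-, 9 of 13 and 6 of 12 against blood). Between Arg1+ and Arg1- macrophages, 1102 genes and 6 lower members were called, against 504 and 2 with normexp on the median spot signal, 3 members with the authors' deposited log2 table, and 297 and 0 without both faintest arrays (fewer arrays). Leaving out single arrays gave 607 to 1783 genes (607 without Arg1- replicate 3, 674 without Arg1+ replicate 3, 1783 without post-TBI replicate 4) and 3 to 7 members. The member median moved from -0.39 to -0.02 with normexp (all genes 0.12 there), -0.16 with the percentile over probes detected on all arrays and -0.15 with the authors' table. In blood, the 26 genes called became 16 with normexp, 11 without the faintest arrays, 0 with only these groups in the fit and 2 (without post-TBI replicate 3) to 55 (without post-TBI replicate 1 or normal replicate 3) without single arrays. The percentile over detected probes put 52.9% of 34 calls higher, against 69.2%. For Arg1+ against blood, 5 lower members became 3 with normexp and 9 with the slide block, and the median -0.13 became 0.17 with normexp (all genes 0.14). Single arrays gave 4 to 6. For Arg1- against blood, 10 higher members became 6 with the percentile over detected probes, and 2 lower became 1 with that, with normexp, with no filter on dim probes and with probes detected on all arrays of a group (28 members tested), and 1 to 2 without single arrays. Whether the replicate numbers pair the samples is not stated in the labels. Arg1+ and Arg1- arrays of 1 number had deviations correlating at -0.465 to 0.407 across genes, and those of 1 slide at 0.044 to 0.589. Arrays of 1 number always lay on different slides in these groups, so the correlations cannot settle whether they are paired. With the replicate number as a block, the calls in blood fell to 2 and 3 member calls were lost (Rrm2 between Arg1+ and Arg1-, E2f1 and Birc5 against blood). The causes were not tested. Members near background are limited by signal: the lowest level at which a probe was well above background ran from -4.32 to -3.75 across arrays.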
